A study of Equus caballus with 4 samples.

Results

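COL14A1, COL15A1, COL5A2, SPARC and COMP encode proteins of the connective tissue matrix, and their transcripts were followed here in equine sarcoids, the locally invasive fibroblastic skin tumours of horses. The genes were read through every non-control probe whose RefSeq transcript belongs to one of them, which gave 19 of 43603 probes: 6 for COL14A1, 2 for COL15A1, 1 for COL5A2, 8 for SPARC and 2 for COMP. They were chosen because of their sarcoid over skin ratios on these same arrays, so those ratios are given as a description with no test of their own. Each of 4 horses contributed sarcoid tissue and tumour-distant skin. RNA of the sarcoid was labelled with Cy3 and RNA of the skin with Cy5, and both were hybridised to 1 array per horse. The labels give no breed, age, treatment or lesion type, and describe no clone or pool.

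Collagens are triple-helical proteins of the extracellular matrix. Type V collagen, of which COL5A2 encodes the α2 chain, is built into collagen I fibrils and limits their diameter. Collagen XIV (COL14A1) lies on the surface of such fibrils, and collagen XV (COL15A1) lies at the border between basement membranes and the fibrillar matrix. SPARC is a secreted calcium- and collagen-binding glycoprotein made by fibroblasts and other cells that remodel matrix. COMP, a member of the thrombospondin family best known from cartilage and tendon, binds collagens and aids fibril assembly.

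All values are on a log2 scale. A ratio is the log2 of sarcoid over skin within 1 horse, so 1 unit is a 2-fold difference, and a level is the normalized log2 intensity of 1 probe in 1 tissue, comparable between tissues and horses for that probe only. A gene's ratio is that of its probe of highest mean intensity. Between 67.2% and 78.4% of probe spots were well above background in the sarcoid channel, against 74.8% to 80.7% in the skin channel, and 0 spots were saturated. The lowest share was that of the sarcoid of horse 4. All arrays lay on 1 slide read in 1 scan, so neither could be fitted as a batch. The dye orientation was the same on each array, and any dye bias of a probe is contained in its ratio. In bulk tissue, fewer cells of a type and less RNA per cell cannot be told apart. The number of arrays limits the precision.

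By the brightest probe of each gene, the 3 collagen genes and SPARC had higher levels in the sarcoid than in the skin of each horse, and COMP had a lower one. For SPARC in horse 4 this did not hold for every probe: 3 of its 8 probes had ratios slightly below 0 there. In the limma fit over all 19608 targets (genes, or accessions where no symbol was found), 5.84% were called higher and 9.90% lower at an adjusted p below 0.05 (Benjamini-Hochberg). Because the 5 genes were chosen on this contrast, no call is given for them, and their ratios are placed among those of all targets only as a description. The same holds for their equal sign in each horse and for tissues that did not overlap. The share of all targets with either trait was not counted. The number of targets with a still higher ratio was 11 for COL14A1, 14 for SPARC, 122 for COL5A2 and 912 for COL15A1. The place of COL14A1 rests on its brightest probe, at 3.04, and the mean of its 6 probes was lower, at 1.73. For COMP, 3.04% of the targets had a still lower ratio.

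**Figure D1:**
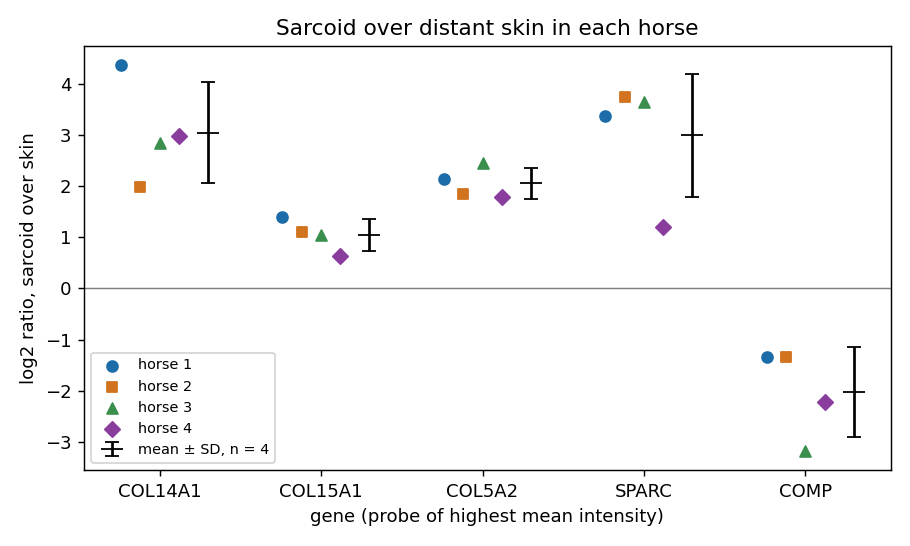
The vertical axis is the log2 ratio of sarcoid over skin for the brightest probe of each gene, with a symbol per horse and the mean ± SD of 4 horses as a bar. The 4 genes with ratios above 0 run from 0.63 (COL15A1, horse 4) to 4.36 (COL14A1, horse 1), COMP lies between -3.17 and -1.34, and SPARC in horse 4 stands at 1.20 below its other horses.

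COL5A2, the chain of a fibrillar collagen, had the smallest spread of the collagens relative to its size. Its only probe, A_69_P105831 of XM_001501817, had levels of 8.58, 8.31, 8.89 and 8.40 in the sarcoids of horses 1 to 4, against 6.45, 6.46, 6.45 and 6.63 in their skin. The tissues did not overlap, and the skin values of horses 1 to 3 were nearly equal. The ratios were 2.13, 1.85, 2.44 and 1.78, with a mean of 2.05 ± 0.30 (SD, n = 4), or 4.14-fold. The skin signal of this probe was dim, with median intensities of 74.5, 100, 98 and 133 over local backgrounds of 46.5, 45, 43.5 and 51.5, although it was flagged well above background on 4 of 4 skin arrays. The mean ratio was 1.13 with the background model fitted to all spots, 2.04 with no background correction, and 3.58 with Agilent's processed signals, which also differ in dye normalization. The cause of these differences was not tested.

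COL15A1, the collagen of basement membrane borders, had the smallest ratio of the 4 higher genes. Probe A_69_P107187 of XM_005605653 had levels of 12.52, 12.48, 12.67 and 12.46 in the sarcoids of horses 1 to 4, against 11.13, 11.38, 11.63 and 11.83 in the skin. The sarcoid level hardly varied between horses (SD 0.10), while the skin level varied more (SD 0.30). The ratios were 1.39, 1.10, 1.04 and 0.63, with a mean of 1.04 ± 0.31 (SD, n = 4). Its other probe, A_69_P107186, gave 1.67, 1.20, 1.19 and 1.10, a mean of 1.29 ± 0.26. Both probes were highest in horse 1 and lowest in horse 4. With arrays centred on their median in place of loess the mean was 0.70.

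COL14A1, the fibril-surface collagen, was read by 5 probes of the transcript NM_001163870 and 1 probe of XM_005613197, and the probe of XM_005613197 represents the gene because it was the brightest. That probe, A_69_P107301, had levels of 13.06, 11.63, 12.54 and 13.66 in the sarcoids of horses 1 to 4, against 8.71, 9.65, 9.70 and 10.68 in their skin. The tissues did not overlap, although both varied by about as much between horses (SD 0.86 in sarcoid, 0.81 in skin). The ratios were 4.36, 1.98, 2.85 and 2.97, with a mean of 3.04 ± 0.98 (SD, n = 4). Horse 1 had the highest ratio and the lowest skin level, and horse 2 had the lowest ratio and the lowest sarcoid level.

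The 5 probes of NM_001163870 gave smaller ratios, with averages over the probes of 2.33, 1.00, 1.84 and 0.69 in horses 1 to 4 and single probe means from 1.27 to 1.61. Every one of these probes was above 0 in every horse, and the lowest single value was 0.50 in horse 4. The probe of XM_005613197 exceeded their average by 2.03, 0.99, 1.01 and 2.28 in the 4 horses. Averaging all 6 probes gave a ratio of 1.73 for the gene. The 5 probes were dim, with median skin intensities between 93 and 186.5. In horse 4 their median sarcoid intensities were dim as well, between 97 and 124. With Agilent's processed signals their average was 3.32, 1.87, 2.67 and 1.90, against 4.56, 2.15, 3.05 and 3.14 for the probe of XM_005613197, so the gap was then wide in horses 1 and 4 and narrow in horses 2 and 3. Relative to the mean of the other horses, the sarcoid level of horse 4 was at -1.54 by the 5 probes and at 1.24 by the probe of XM_005613197. By 3 of the 5 probes the range of sarcoid levels overlapped that of skin levels.

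**Figure D2:**
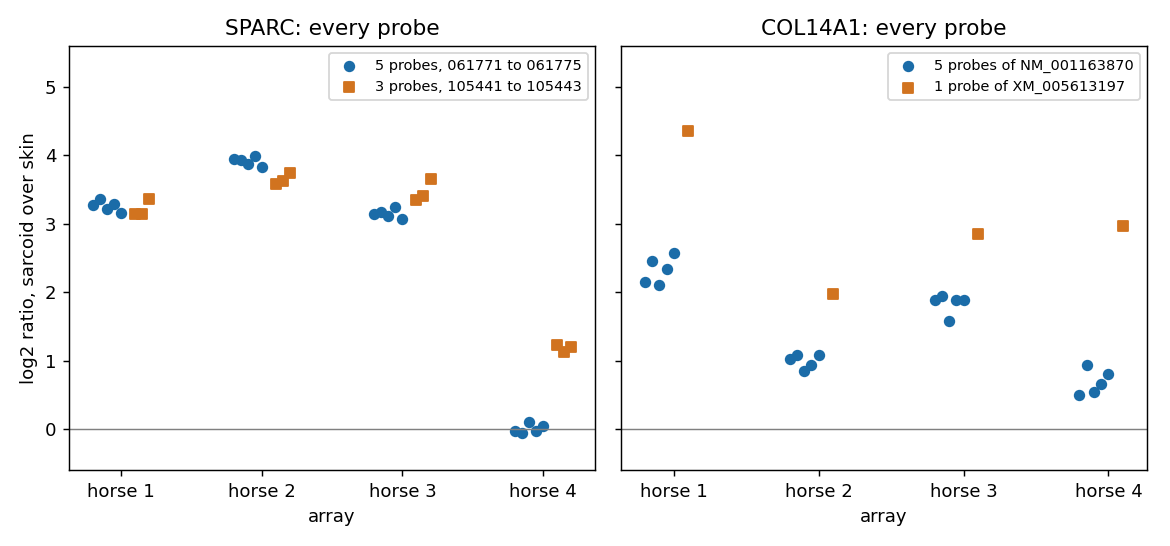
The vertical axis is the log2 ratio of sarcoid over skin for each of the 8 SPARC probes (left) and 6 COL14A1 probes (right) on the array of each horse, with circles and squares for the probe sets. The SPARC sets lie together between 3.08 and 3.99 in horses 1 to 3 and apart in horse 4, at -0.06 to 0.10 and 1.13 to 1.23.

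SPARC had the greatest difference between horses of the 5 genes. Its brightest probe, A_69_P105443, had levels of 17.96, 18.43, 18.32 and 17.30 in the sarcoids of horses 1 to 4, against 14.60, 14.69, 14.67 and 16.09 in the skin. Horse 4 had both the lowest sarcoid level and the highest skin level, and the tissues still did not overlap. The ratios were 3.36, 3.74, 3.65 and 1.20, with a mean of 2.99 ± 1.20 (SD, n = 4), and without horse 4 the mean was 3.58.

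The 8 SPARC probes carry 1 transcript accession, NM_001143953, but form a dimmer set of 5 (A_69_P061771 to A_69_P061775) and a brighter set of 3 (A_69_P105441 to A_69_P105443). In horses 1 to 3 the sets gave nearly equal averages: 3.26, 3.92 and 3.15 for the 5 probes and 3.22, 3.65 and 3.47 for the 3 probes. In horse 4 the 5 probes averaged 0.01 and the 3 probes 1.19. All 5 dimmer probes lay within 0.10 of 0 there, so by them sarcoid and skin of horse 4 had almost the same SPARC level, while by the brighter probes the sarcoid was 2.28-fold higher. Agilent's processed signals, which are also dye-normalized, gave the same picture, with 0.23 for the 5 probes and 1.25 for the 3 probes in horse 4. Before normalization, A_69_P105443 of the brighter set had median intensities of 105479 in sarcoid and 117196 in skin of horse 4. The median signal of all probes on that array was 113.5 in sarcoid and 236 in skin, so the sign of this ratio rests on the normalization.

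The tissue that differed in horse 4 depended on the probe set. By the 5 dimmer probes the sarcoid level of horse 4 minus the mean of horses 1 to 3 was -3.75, or 13.5-fold lower, and the same difference in skin was -0.31. By the 3 brighter probes the difference was -0.94 in sarcoid and 1.32 in skin. By the dimmer probes the range of sarcoid levels overlapped that of skin levels, because of horse 4. Before normalization, probe A_69_P061771 had a median sarcoid intensity of 382 in horse 4, against 5642, 9211 and 5846 in horses 1 to 3. Its skin intensity in horse 4, 917, lay within the 557.5 to 1129 of the others. All of these intensities were far above the local background of 22.5 to 46.

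Probes of the same target also spread more in horse 4 across the array. Over 6177 targets with at least 2 kept probes, each probe was set against its own mean over the horses, and the median range between the probes of a target was taken. In the sarcoid channel it was 0.121 in horse 4, against 0.0804 to 0.0844 in horses 1 to 3, and in the skin channel 0.0953 against 0.0692 to 0.0769. The part of this wider spread in the SPARC and COL14A1 values of horse 4 was not tested.

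**Figure D3:**
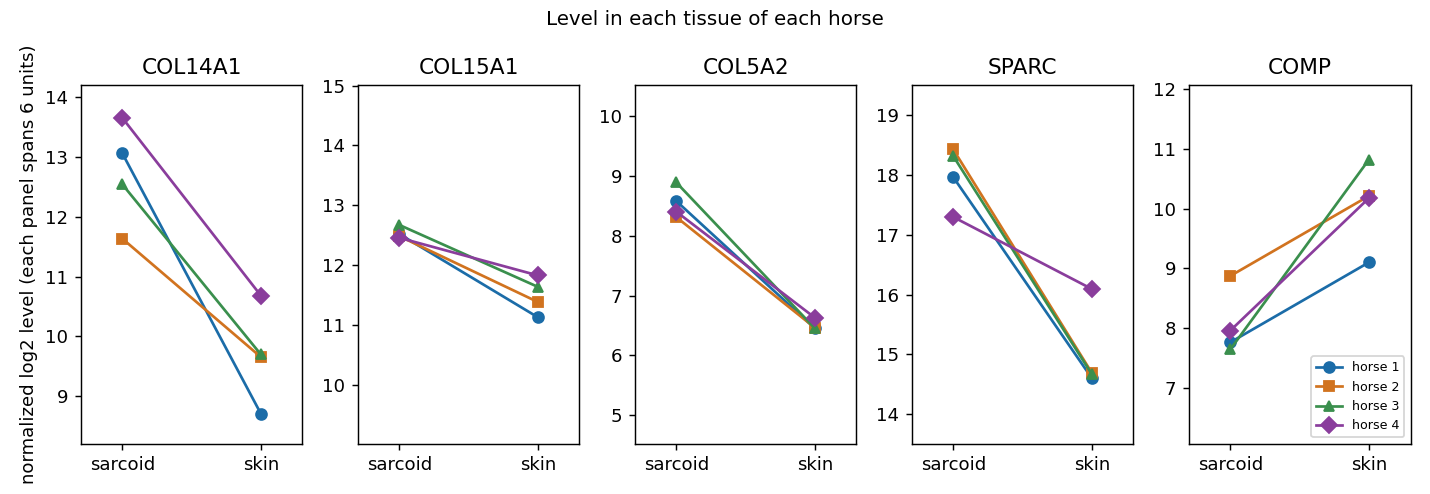
The vertical axis is the normalized log2 level of the brightest probe of each gene in sarcoid and in skin, with a line per horse, and every panel spans 6 units. Lines slope down from sarcoid to skin for the collagens and SPARC and up for COMP, and the SPARC line of horse 4 starts lowest (17.30) and ends highest (16.09).

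COMP, the thrombospondin-family protein of cartilage and tendon, was the gene with lower levels in the sarcoids. Probe A_69_P000371 of NM_001081856 had levels of 7.76, 8.87, 7.64 and 7.96 in the sarcoids of horses 1 to 4, against 9.10, 10.21, 10.82 and 10.18 in the skin. The tissues did not overlap, but the sarcoid of horse 2 came close to the skin of horse 1. The ratios were -1.34, -1.34, -3.17 and -2.22, with a mean of -2.02 ± 0.88 (SD, n = 4), or 4.05-fold. Horse 3 was the farthest from 0, with the highest skin level and the lowest sarcoid level. Without horse 3 the mean was -1.63.

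The other COMP probe, A_69_P004626, did not pass the filter on dim probes. It exceeded background clearly on 1 sarcoid array, that of horse 2, and on 0 of 4 skin arrays. Its median intensities were 78, 103, 83 and 73 in sarcoid and 66, 67, 68 and 81 in skin, so it gives no reading of the skin level and no ratio was taken from it. COMP therefore rests on 1 probe, as COL5A2 does, and 18 of the 19 probes passed the filter.

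The reported values leave out outlier spots before the background model is fitted, an order settled with earlier calls known. With that model fitted to all spots, outliers included, the ratios were 2.73 for COL14A1, 1.00 for COL15A1, 1.13 for COL5A2, 2.94 for SPARC and -1.27 for COMP. With that change 93 targets in all were called higher and 147 lower. The sign of each gene's mean was the same under each alternative that was run. No single horse led all genes: horse 1 had the highest ratio for COL14A1 and COL15A1, horse 2 for SPARC and horse 3 for COL5A2. Horse 4 had the lowest ratio for COL15A1, COL5A2 and SPARC.

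**Figure D4:**
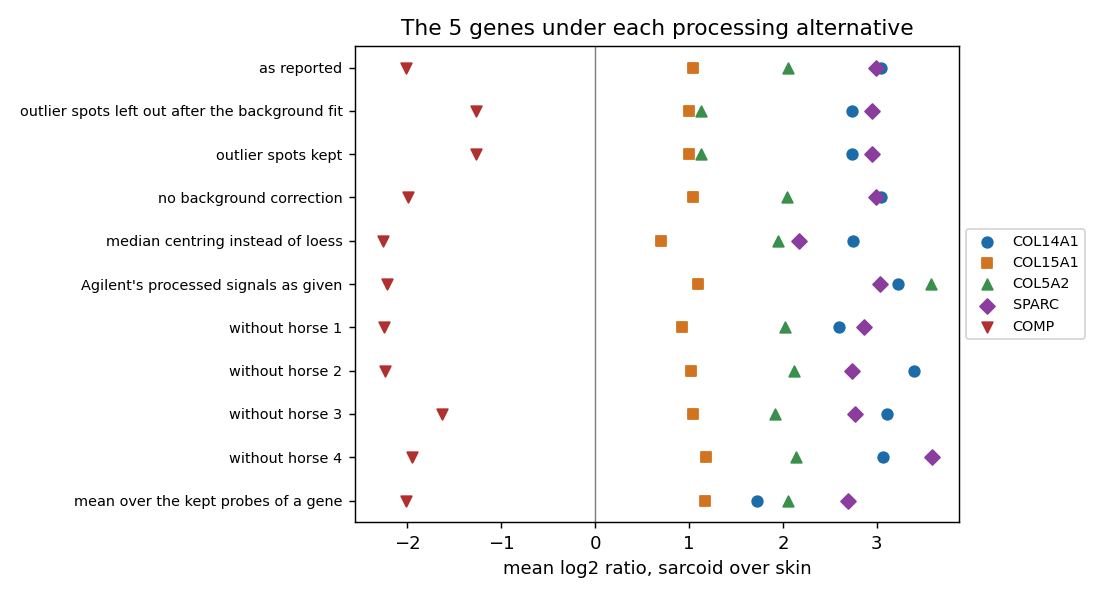
The horizontal axis is the mean log2 ratio of sarcoid over skin of each gene, with a row for the reported setting and for each of 10 alternatives and a symbol per gene. COL5A2 moves most, between 1.13 and 3.58, and COMP stays below 0 in every row shown.

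Of the genes with a symbol, those nearest to the collagens and SPARC were found by the root mean square difference of the 4 horses' ratios. COL14A1 was nearest to BGN, which encodes the matrix proteoglycan biglycan, with a difference of 0.45, followed by SELENOP (selenoprotein P, 0.85) and TIMP1 (0.95). COL5A2 was nearest to DSE (dermatan sulfate epimerase, 0.23), then TNFAIP6 (a hyaluronan-binding protein, 0.40) and DCN (decorin, 0.47). COL15A1 was nearest to CALU (calumenin, a calcium-binding protein of the secretory pathway, 0.23), CYP2C110 (0.26) and IFT27 (a protein of cilia, 0.31). SPARC had more distant neighbours, SERPINF1 (0.66), VCAM1 (1.02) and BGN (1.02). SERPINF1, which encodes pigment epithelium-derived factor, had ratios of 3.55, 2.51, 3.23 and 1.18, lowest in horse 4 as SPARC was.

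Matrix genes beyond the 5 were sparsely named on this array: 22 of 212 listed genes could be tested. Of these, 5 rose and 1 fell at a limma adjusted p under 0.05, against the 5.84% and 9.90% of all targets, and 16 were not called. Their median ratio was 0.84, against 0.00 for all targets. These lists were chosen with earlier results of these data known, so the counts and the median are a description and not independent support. Of the small leucine-rich proteoglycans, which coat collagen fibrils, 3 of 5 rose, namely LUM, BGN and DCN, at 4.24 ± 1.16, 3.06 ± 0.61 and 1.84 ± 0.51 (SD, n = 4). On median centring DCN stood at 0.89 and was not called (limma adjusted p = 0.0686). TIMP1, a metalloproteinase inhibitor, rose by 2.14 ± 0.80 and was the only one called of 7 matrix proteases and inhibitors, a call lost without horse 3 (limma adjusted p = 0.051). VCAM1 rose by 2.61 ± 0.78 and was the only one called of 3 in the receptor list, but it is an adhesion molecule for leukocytes and not a collagen receptor. With the background model fitted to all spots, 3 of the listed genes were higher and 0 lower, since VCAM1, TIMP1 and HAPLN1 were lost.

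No other collagen and no collagen-processing gene that was measured passed the test. COL2A1, the cartilage fibrillar collagen, was the only 1 of 41 other collagens with a tested symbol and stood at 0.91 ± 0.57 (limma adjusted p = 0.0586). PPIB, a prolyl isomerase that assists collagen folding, was the only 1 of 34 processing genes and stood at 0.83 ± 0.51 (limma adjusted p = 0.0596). Both were above 0 in each of the 4 horses, and the share of all targets with that trait was not counted. The COL2A1 probe was dim in skin, at a mean level of 6.31, although above background on 4 of 4 skin arrays.

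Of 15 listed relatives of SPARC and COMP only 2 were measured, and neither passed. FSTL1, a secreted protein of the SPARC family, had ratios of 3.26, 2.01, 2.20 and -0.52 in horses 1 to 4 (limma adjusted p = 0.121). THBS2, thrombospondin 2, had ratios of 2.55, 1.51, 0.65 and -0.21 (limma adjusted p = 0.164). Both were above 0 in horses 1 to 3 and below 0 in horse 4. These signs were not particular to relatives of SPARC and COMP. Genes of the receptor list and of the protease list had them too, and their share among all targets was not counted. The sarcoid channel of horse 4 had the lowest share of spots above background (67.2%), and its part in these values was not tested. HAPLN1, the link protein that fixes proteoglycans to hyaluronan, fell by at least 1.62-fold in the reported setting (limma adjusted p = 0.0363). The value is a bound because its probe was dim on 4 of 4 sarcoid arrays, and it holds only for that setting. Its log2 ratio was -0.27 with the background model fitted to all spots (limma adjusted p = 0.333) and -3.53 with Agilent's processed signals. The call of HAPLN1 was lost without any 1 of the 4 horses.

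**Figure D5:**
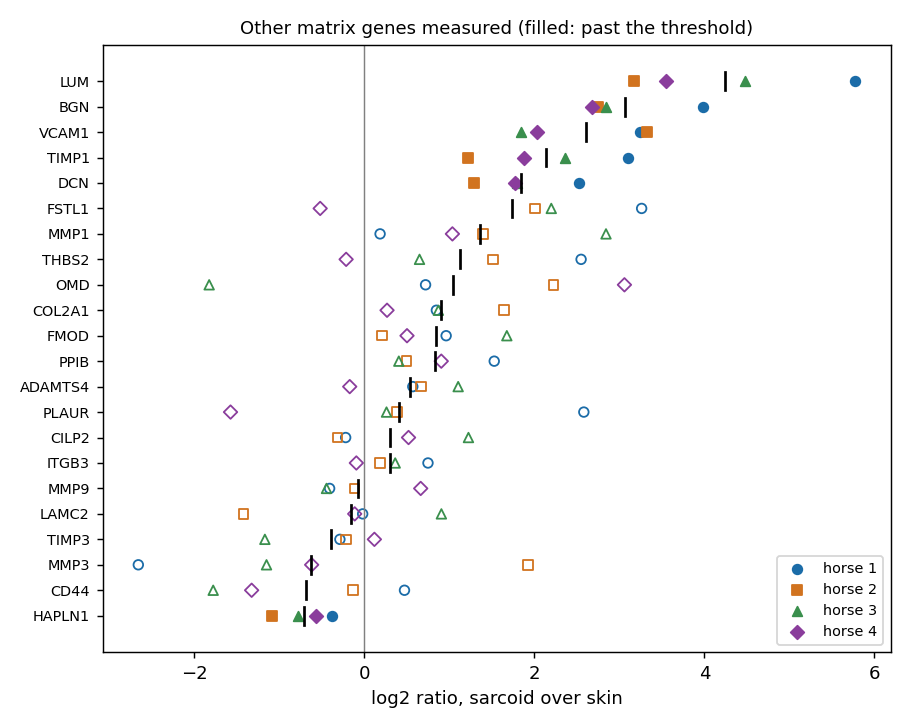
The horizontal axis is the log2 ratio of sarcoid over skin for the 22 other matrix genes tested, with a symbol per horse (filled where the gene was called) and a line at the mean. LUM, BGN, VCAM1, TIMP1 and DCN lie above 0 in every horse, and the ratio shown for HAPLN1 is from a probe at background in sarcoid.

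Markers of the cells that make or border this matrix were set beside these values. The marker lists were chosen with earlier results of these data known, so their calls are a description and not independent support. All 5 measured of 15 fibroblast markers were called higher, against 5.84% of all targets. LUM and DCN, already counted among the proteoglycans, were among them, and VIM (vimentin) stood at 1.58 ± 0.47. The summed level of the 5 on the linear scale was 474000 to 673700 in sarcoids and 105600 to 183100 in skin. Both measured keratinocyte markers of 17 were called lower, against 9.90% of all targets, KRT15 at -5.12 ± 0.11 and S100A7 at -5.13 ± 0.36, with a summed level of 1238 to 2746 in sarcoids and 37090 to 121500 in skin. The 4 measured endothelial markers of 12 and the 1 measured smooth muscle marker of 9 were not called, with summed levels of 1909 to 23650 and 1704 to 6191 in sarcoids against 2990 to 7527 and 2659 to 4571 in skin. Of the skin gland markers 3 of 4 measured were lower, with a summed level of 4012 to 6811 in sarcoids and 298600 to 417300 in skin. Of the melanocyte markers 2 of 5 were lower, with 1747 to 3838 in sarcoids and 3954 to 5102 in skin. Of the leukocyte markers 1 of 5, CSF1R, was higher, with 7552 to 22330 in sarcoids and 3920 to 9192 in skin. Of the skeletal muscle markers 1 of 4, MB (myoglobin), was lower, with 490.5 to 644.4 in sarcoids and 659.7 to 703.3 in skin. MB and the melanocyte marker TYRP1, also called lower, were above background on 0 of 4 sarcoid arrays, so the size of their ratios depends on the background. Each summed level adds different probes and is weighted to the brightest, so it does not measure the content of a cell type. LATH was the brightest gland marker (mean level 18.32 in skin). MITF (11.48 in skin) and ACTN3 (8.07 in sarcoid), neither of them called, were the brightest melanocyte and skeletal muscle markers. The part of tissue composition in the 5 genes' ratios was not tested.

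Beside COMP, the cartilage and tendon markers had 4 measured of 11, of which 2 were called lower, against 9.90% of all targets, and 2 were not called. SCX, the tendon transcription factor scleraxis, fell by 1.71 ± 1.07 on the log2 scale (limma adjusted p = 0.0493), with ratios of -3.06, -1.53, -1.79 and -0.45 in horses 1 to 4. HAPLN1 was the other lower one, TNMD (tenomodulin) was at -0.43 ± 0.25 and COL2A1 was above 0. On the sarcoid arrays HAPLN1 was above background on 0 of 4 and TNMD on 1 of 4, so the size of their ratios depends on the background. The summed level of the 4 was 506.1 to 678.1 in sarcoids and 778 to 2055 in skin. Horse 1, with the lowest SCX ratio, had one of the COMP ratios closest to 0, and the part of these markers in the COMP values was not tested.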

How the data were processed

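RNA of sarcoid (Cy3) and tumour-distant skin (Cy5) of 4 horses was labelled by a low-input protocol and hybridised to Agilent horse arrays, per the labels. For 3 samples the description mentions embryonic stem cells, but the fields for tissue, dye and animal were followed. The deposited intensity values, per the file headers, are median spot and background signals and Agilent's processed signals, background-subtracted and dye-normalized by Agilent Feature Extraction (version 11.5.1.1 in the submitters' processing notes). The deposited log10 ratio has Cy5 on top and is identical to the authors' value table (largest difference 0). Other deposited columns are flags of 0 or 1.

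Spots with an outlier flag (non-uniform feature, non-uniform background or feature population) in Cy3 or Cy5 were removed first, an order settled with earlier calls known. None of the 5 genes lost a spot (0). The normexp background correction used an offset of 50, followed by loess within arrays, control spots having weight 0 (limma 3.58.1, R 4.3.3). Levels per tissue come after quantile normalization of mean intensities between arrays. A probe was kept if 3 or more arrays showed it well above background in sarcoid or in skin, and a gene was its probe of highest mean intensity. The two-sided test of ratios against 0 used eBayes after lmFit with p-values adjusted by Benjamini-Hochberg, and each ratio already pairs the tissues of a horse. The code of the fit was checked on simulated data, which is no support for the calls given here. Of 3437 RefSeq probes 2332 matched the horse RefSeq table of assembly TB-T2T. No coordinates are given, since the file headers name another build, EquCab1.

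The members and lists were chosen with earlier results of these data known. Named genes are the 5, up to 4 called (or 2 uncalled) per list, and the 3 nearest genes to each, with placeholder LOC symbols not counted as symbols. The nearest genes of COMP are not reported here. Of the marker lists any measured gene could be given. Alternatives covered outlier spots, background, normalization, probe choice, filters, model, threshold and each horse left out.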

Additional observations from a re-analysis of the deposited data

Results flagged for a closer look

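Among 51 groups of 4 horses examined, 4 had 1 horse far from the others by Dixon's criterion at the 95% level, and chance flags about 1 group in 20. The SPARC ratio of probe A_69_P105443 was 1.20 in horse 4, and the SPARC skin level of the same probe was 16.09 in horse 4. The COL5A2 skin level was 6.63 in horse 4, where the other horses were nearly equal. The BGN ratio was 3.98 in horse 1. The part of the wider spread between probes on the array of horse 4 in these values was not tested.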

How the results depend on the processing

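The ratios of SPARC and COMP moved by less than their SD over horses under each of 10 alternatives. These SDs, 1.20 and 0.88, are wide beside the 0.31 of COL15A1, so smaller moves are not implied. SPARC was at 2.17 on median centring, and COMP at -1.27 with outlier spots left out after the background fit or kept. The ratios of the collagens moved by more than their SD in few alternatives. COL5A2 was at 1.13 with outlier spots left out after the background fit or kept, and at 3.58 with Agilent's processed signals. COL15A1 was at 0.70 on median centring, and COL14A1 at 1.73 as the mean of its probes. The 5 NM_001163870 probes of COL14A1 averaged 2.44 with Agilent's processed signals, against 1.46, an alternative chosen after seeing the data. The cause of these moves was not tested. With each horse left out in turn, the ratio ranged from 2.60 to 3.39 for COL14A1, 0.92 to 1.18 for COL15A1, 1.92 to 2.14 for COL5A2, 2.74 to 3.58 for SPARC and -2.24 to -1.63 for COMP.

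Of all targets, 93 were called higher and 147 lower with outlier spots left out after the background fit, and 94 and 147 with outlier spots kept, against 1146 and 1941. Higher calls numbered 614 on median centring, where they made up 18.6% of calls against 37.1%. They numbered 1883 (48.2%) with the signals processed by Agilent's software. At an adjusted p under 0.01, 253 were higher and 864 lower. Leaving out 1 horse gave 389 to 820 higher and 1077 to 1415 lower, and without horse 1 26.5% of calls were higher. Of the listed matrix genes, 3 were higher and 0 lower under both outlier alternatives, and 0 were lower on median centring, at 0.01, without any 1 horse, or where all arrays had to be above background, which removes HAPLN1. Higher ones numbered 4 to 6 with 1 horse left out. With channels as separate samples, 6 listed genes were higher and 1 lower with no replicate block, and 5 and 1 with the replicate block. DCN was not called on median centring (0.89, limma adjusted p = 0.0686). TIMP1 lost its call with no replicate block (limma adjusted p = 0.0581) and kept it with the block. Of all targets, 927 were higher and 1781 lower with no replicate block, and 1143 and 1942 with the replicate block.

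The skin signals of COL5A2 and of the 5 COL14A1 probes were dim, and their part in the size of the ratios was not tested.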
